A study of Mus musculus with 6 samples.

Results

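Nuclear genes that encode subunits of the respiratory chain and of ATP synthase were compared between mouse kidneys labelled wild type (WT) and Lpar3-/-, all taken after 12 h in 8% oxygen. None of these genes passed the test between the groups, in either direction, where 0.374% of all genes tested did. The 82 that could be tested had a median difference of 4.49%, the libraries labelled Lpar3-/- being higher. The difference was positive in 67 and negative in 15 of them, where 48.9% of all genes tested were positive. For 78 of the 82 the 95% interval stayed within 1.5-fold either way, as it did for 10240 of all 15225 genes tested. WT replicate 3 was the lowest of the 6 libraries for 52 of the 82, and for 20.2% of all genes tested. Without it 51 of the 82 were positive, where 50.4% of all genes in that fit were.

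Members were chosen by a rule on names, from the protein-coding rows of the count table that do not lie on the mitochondrial chromosome. Earlier results of these data were known when they were chosen. Names that begin with Ndufa, Ndufb, Ndufc, Ndufs, Ndufv, Uqcr, Atp5 or Cox4 to Cox8 were taken, with Sdha, Sdhb, Sdhc, Sdhd, Cyc1 and Cycs. Names that begin with Ndufaf (assembly factors), Ndufa4l2 and Cox4i2 were left out. The rule gave 86 of 54532 named genes, with 36 in complex I, 4 in complex II, 9 in complex III, 18 in complex IV, 18 in complex V and cytochrome c as the last. They carried 85 names, because Atp5o was listed under 2 identifiers. Of the 86, 82 passed the filter on low counts. The others were Cox6a2, with 3 to 14 counts a library, and Cox7b2, Cox8c and the second Atp5o entry, which had 0 counts in every library.

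The study asked what lysophosphatidic acid receptor 3, a receptor for a signalling lipid, does in the kidney of a hypoxic animal, and it sequenced polyadenylated RNA of whole kidney in 3 libraries a group. Both groups were hypoxic, and no kidney from normal air was analysed here. The sources used here do not give age, sex, strain, the way the Lpar3 allele was made or whether each library came from its own animal, so p-values measure only the spread between these samples, which may be technical. The counts of Lpar3 were 645, 634 and 577 in WT and 672, 592 and 580 in the other group. These gene counts did not set the groups apart, so the text speaks of libraries labelled Lpar3-/-, and each direction rests on the labels. Libraries held 15953794 to 17940438 counts of named genes, of which the members took 2.21% to 2.41%.

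Electrons from NADH enter the chain at complex I (NADH dehydrogenase), and electrons from succinate enter at complex II (succinate dehydrogenase). They pass through ubiquinone to complex III (the cytochrome bc1 complex), through cytochrome c to complex IV (cytochrome c oxidase), and on to oxygen. Complexes I, III and IV pump protons across the inner mitochondrial membrane, and complex V (ATP synthase) lets them flow back to make ATP. Most subunits are encoded in the nucleus and imported, while a few core subunits are encoded in mitochondrial DNA. Kidney tubule cells, above all those of the proximal tubule and the thick ascending limb, are rich in mitochondria and depend on this pathway for salt transport.

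Promoter sequences were looked at because members share known regulators. The RefSeq promoter table (build GRCm38.p6, 250 bases before to 50 after each start) held 75 promoters of 70 of the 85 member names, 2 of them matched through an older symbol. Motifs were searched on both strands: GCGCATGC for the nuclear respiratory factor NRF1, CCGGAAG for ETS factors such as GABP, AAGGTCA for the estrogen-related receptors, AAGATGGC for YY1 and ACGTG for hypoxia-inducible factors. The stretches printed are the 250 bases before the start, 5′ to 3′ on the strand of the gene, with every match that lies wholly within them in capitals. Cycs, the electron carrier, and Atp5l, the complex V member with the largest fold change, are shown for the NRF1 match. Uqcr11 is shown as a member whose level varied between libraries, and Cox7b as the member with the lowest p.
Cycs (chr6:50566570-50566819, minus strand): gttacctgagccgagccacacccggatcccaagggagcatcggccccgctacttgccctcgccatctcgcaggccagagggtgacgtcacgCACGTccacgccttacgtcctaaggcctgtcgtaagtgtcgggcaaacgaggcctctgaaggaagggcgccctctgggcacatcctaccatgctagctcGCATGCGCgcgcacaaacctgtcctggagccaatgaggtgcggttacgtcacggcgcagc
Atp5l (chr9:44920743-44920992, minus strand): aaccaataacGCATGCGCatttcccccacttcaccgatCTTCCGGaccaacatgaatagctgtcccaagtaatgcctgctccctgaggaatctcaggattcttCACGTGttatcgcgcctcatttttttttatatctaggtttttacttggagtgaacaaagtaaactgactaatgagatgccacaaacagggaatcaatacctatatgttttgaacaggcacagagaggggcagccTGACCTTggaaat
Uqcr11 (chr10:80406822-80407071, minus strand): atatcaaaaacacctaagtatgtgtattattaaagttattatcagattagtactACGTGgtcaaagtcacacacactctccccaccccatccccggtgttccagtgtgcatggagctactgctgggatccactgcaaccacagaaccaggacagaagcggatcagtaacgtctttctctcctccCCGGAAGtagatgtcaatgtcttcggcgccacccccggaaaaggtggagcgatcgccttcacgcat
Cox7b (chrX:106015450-106015699, plus strand): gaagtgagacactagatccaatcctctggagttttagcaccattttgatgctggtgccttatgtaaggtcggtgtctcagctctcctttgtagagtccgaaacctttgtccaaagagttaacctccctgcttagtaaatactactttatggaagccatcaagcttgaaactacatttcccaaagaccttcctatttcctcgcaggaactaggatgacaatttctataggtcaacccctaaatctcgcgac
In Cycs the NRF1 match began 60 bases and the ACGTG match 159 bases before the start. Atp5l held the NRF1 match at 240 bases, the ETS match at 212 and the estrogen-related receptor match at 13, and its pair of ACGTG matches, at 147 and 146, overlap as a palindrome. Uqcr11 held the ETS match at 66 and ACGTG at 196, and its NRF1 match spans the start, so it is not in capitals. Cycs had a further ACGTG match and Atp5l a further ETS match in the 50 bases after the start, which are not printed. Cox7b held none of the motifs. For Cycs, the RefSeq start lay upstream of the gene end in the count table, and over all members the bases after the RefSeq start were found in a GENCODE transcript for 57 of the 75 promoters.

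The NRF1 letters stood in 11 of the 75 member promoters (14.7%) and in 3.51% of the 21262 promoters of coding genes. The 11 were those of Ndufa6, Ndufa8, Ndufa11, Sdhb, Uqcr11, Uqcrc1, Cox6a1, Atp5g2, Atp5k, Atp5l and Cycs, so every complex had at least 1. The YY1 letters stood in 13.3% of member promoters against 3.05% of coding promoters, the estrogen-related receptor letters in 10.7% against 4.08%, and the ETS letters in 21.3% against 11.6%. The hypoxia letters, which are short and common, stood in 26.7% against 20.9%. The median GC content was 57.7% in member promoters and 56.3% in coding promoters. A match is a run of letters and shows no binding.

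Levels per length spread widely among the subunits, although each complex holds most of its subunits in a fixed ratio. The deposited FPKM values (fragments per kilobase of gene length and unit of library size) are means of the 6 libraries here. The highest were Cox8a (904 FPKM) and Cox6a1 (900.5 FPKM) of complex IV, followed by Atp5b (819 FPKM) and Atp5a1 (747 FPKM), which form the catalytic head of ATP synthase, and Cox4i1 (493 FPKM). The lowest tested members were Ndufb2 (2.89 FPKM), the coupling factor B gene Atp5s (6.12 FPKM), Cox8b (7.07 FPKM) and Ndufab1 (7.36 FPKM). By complex, the median was 86.1 FPKM for the 36 members of complex I, 181 for complex II, 171 for complex III, 164 for the 15 tested members of complex IV and 106 for the 17 of complex V.

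These values depend on the length used. For 79 of the 85 names the deposited length equalled the summed exon length of all GENCODE transcripts, and for 25 it was over 2 times that of the principal transcript. For Atp5l the deposited length was 6443 bases and the principal transcript 544, and its rank among the members moved from 73 by deposited FPKM to 20 by CPM per kilobase of the principal transcript. CPM are counts scaled to the same total in each library. On that second scale Atp5b came first (1825 CPM per kilobase), and the medians were 128 for complex I, 265 for complex II, 317 for complex III, 348 for complex IV and 271 for complex V. Complex I had the lowest median of the 5 complexes on both scales. Ndufb2 stayed the lowest tested member at 3.75 CPM per kilobase, but the second scale changed its length little, from 5628 to 4371 bases. Where principal transcripts ranked equally, the longest was used.

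**Figure D1:**
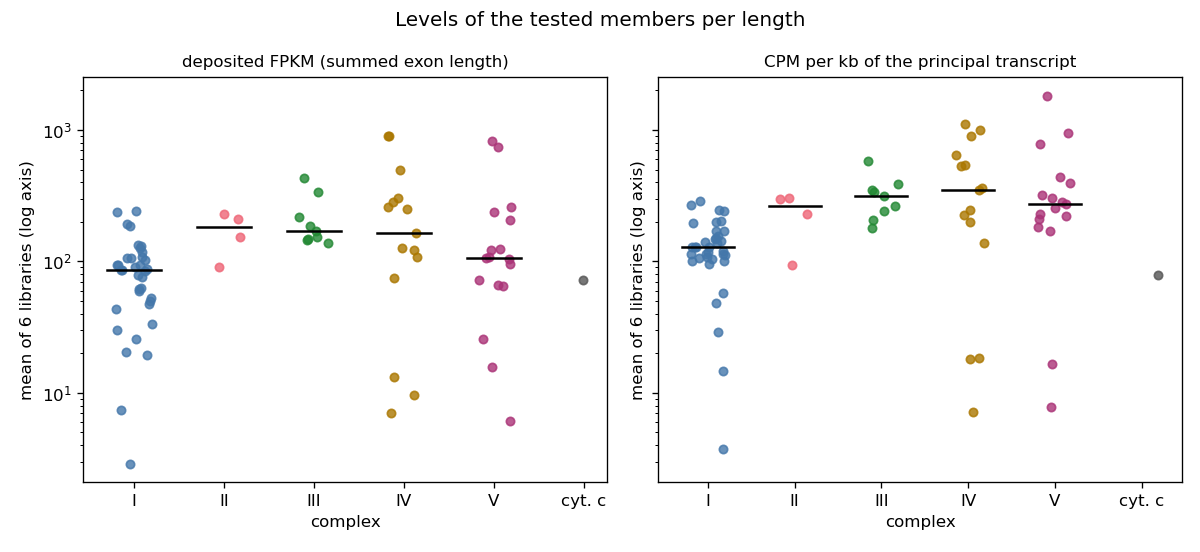
Level per length of each tested member, as the mean of the 6 libraries on a log axis, by deposited FPKM (left) and by CPM per kilobase of the principal transcript (right), with a line at the median of each complex. Complex I has the lowest median of the 5 complexes on both, 86.1 FPKM and 128 CPM per kilobase, and complexes IV and V hold the highest single members.

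Where complex IV has tissue isoforms, the kidney libraries held the widely expressed one. Cox6a1 stood at 900.5 FPKM and its muscle isoform Cox6a2 at 0.665 FPKM. Cox7a2 stood at 250 FPKM against 13.3 FPKM for the muscle isoform Cox7a1, and Cox8a at 904 FPKM against 7.07 FPKM for the muscle isoform Cox8b. Cox6b1 stood at 301 FPKM and the testis isoform Cox6b2 at 9.70 FPKM, and the testis isoforms Cox7b2 and Cox8c had no count. Of 10 striated muscle markers none passed the filter on low counts, 3 had 0 counts in every library, and their summed level was 0.513 to 1.27 CPM. Of the 3 genes for the identical c subunit of the ATP synthase rotor, Atp5g3 stood at 258 FPKM, Atp5g2 at 95.8 FPKM and Atp5g1 at 15.7 FPKM. The deposited lengths behind these values were 2181, 1675 and 4912 bases. Over the 6 libraries Atp5g1 had 7925 counts and Atp5g2 16495, and a near-identical copy of Atp5g1 held 13663 more. The order of Atp5g1 and Atp5g2 is therefore uncertain.

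For the comparison between groups, edgeR's quasi-likelihood test was fitted over the 15225 genes that passed the filter, and p-values were adjusted over all of them by Benjamini-Hochberg. A positive log2 fold change means a higher value in the libraries labelled Lpar3-/-. Of the 82 members tested, 0 had an adjusted p under 0.05, where 0.374% of all genes tested did. At an unadjusted p under 0.05 there were 2 members, Cox7b and Cox6b2, where 9.18% of all genes passed. DESeq2 and limma-voom likewise called 0 and had 2 at an unadjusted p under 0.05, where 4.47% and 8.85% of all genes in those fits passed. With no filter on low counts, edgeR called 2 members as higher, Ndufa12 and Cox6b2, where 1.95% of the 26645 genes in that fit were called. In 3 members (Cox7b, Ndufs7 and Atp5mpl) each library labelled Lpar3-/- was above each WT library, where 6.58% of all genes tested had that order. In 0 members was each below, where 7.12% of all genes had that order. The median standard error (SE) was 0.079 on the log2 scale for members and 0.12 for all genes tested. For 50 of the 82 the 95% interval stayed within 1.2-fold either way, as it did for 4041 of all 15225 genes tested. Members are more abundant, with a median of 166 CPM against 18.7 CPM for all genes tested. Among genes with a mean of at least 50 CPM, members were not the steadier. There the median standard deviation of the log2 level over the 6 libraries was 0.103 for 76 members and 0.092 for all 4031 genes.

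**Figure D2:**
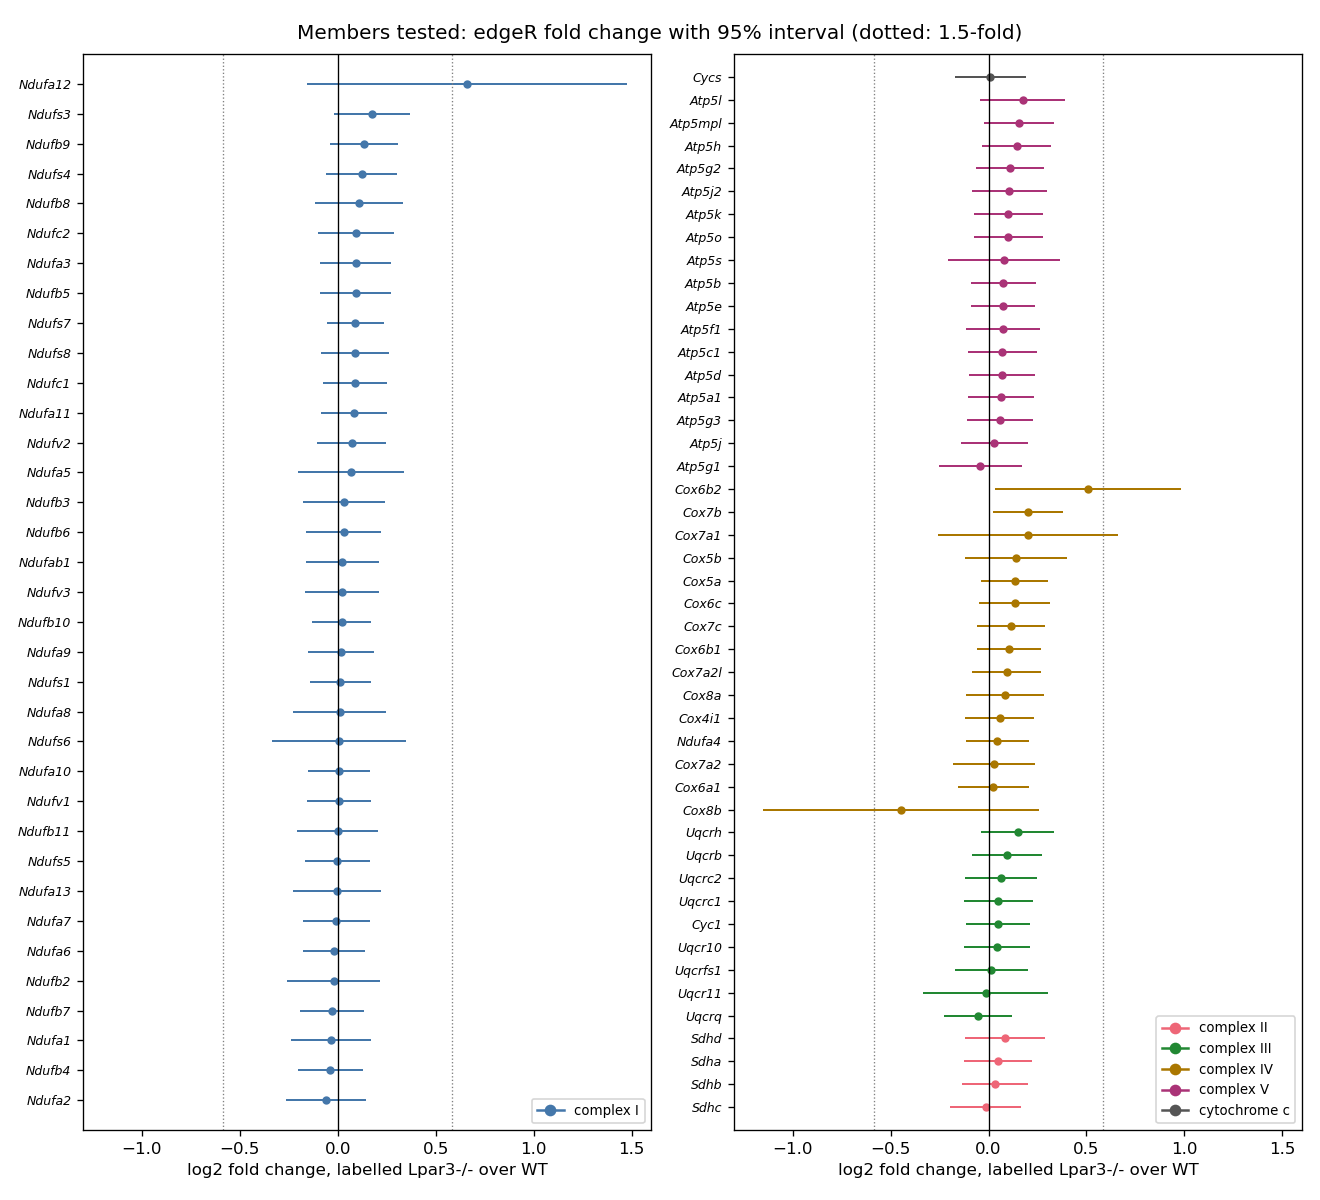
Log2 fold change of 81 tested members (point) with its 95% interval (line), by complex, with dotted lines at 1.5-fold either way. Apart from Ndufa12, Cox6b2, Cox8b and Cox7a1, all intervals drawn lie within the dotted lines, and the points of complexes IV and V lie mostly to the right of 0.

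Complex I had 36 members, all tested, and their median log2 fold change was 0.021 with 26 positive and 10 negative. Without replicate 1 labelled Lpar3-/- the median was -0.014. Its NADH-binding module takes electrons from NADH, its quinone-binding module hands them to ubiquinone, and its membrane arm pumps protons. The medians were 0.017 for the 8 members of the NADH-binding module, 0.043 for the 8 of the quinone-binding module and 0.022 for the 20 of the membrane arm. Ndufs3, a core subunit of the quinone-binding module, had 142, 113 and 127 CPM in the WT libraries and 152, 138 and 139.6 CPM in those labelled Lpar3-/-. The values of the groups overlapped, and the log2 fold change was 0.17 (SE 0.087, adjusted p = 0.594). Ndufb9, of the membrane arm, had 104, 91.7 and 85.7 CPM against 103, 103 and 102 CPM, with WT replicate 1 above the other group (log2 fold change 0.13, SE 0.077, adjusted p = 0.670).

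Ndufs7, which carries the iron-sulfur cluster nearest to ubiquinone, was among the steadiest members. It had 142, 142 and 139.9 CPM in WT and 157, 147 and 146 CPM in the libraries labelled Lpar3-/-. The groups did not overlap, the log2 fold change was 0.089 (SE 0.065), and the adjusted p was 0.762. Ndufa1 and Ndufa2 had the highest FPKM of complex I. Ndufa1, which is needed for assembly of the membrane arm, had 116, 92.2 and 103 CPM against 111, 96.6 and 96.9 CPM, with a log2 fold change of -0.036. Ndufa2 had 156, 134 and 131 CPM against 151, 128 and 127 CPM, with a log2 fold change of -0.058. In both genes replicate 1 was the highest library of either group, and the groups overlapped.

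Complex II is the one complex encoded wholly in the nucleus, and it also works in the citric acid cycle. Sdha, which binds the flavin and oxidises succinate, had 914, 851 and 798 CPM in WT and 926, 864 and 859 CPM in the libraries labelled Lpar3-/-. Sdhb, the iron-sulfur subunit, had 366, 346 and 317 CPM against 363, 345 and 345 CPM. Sdhc and Sdhd anchor the complex in the membrane. Sdhc had 301, 326 and 274 CPM against 284, 311 and 296 CPM, and Sdhd had 283, 304 and 237 CPM against 297, 299.5 and 278 CPM. In all 4 genes WT replicate 3 was the lowest of the 6 libraries. The log2 fold changes were 0.048 for Sdha, 0.033 for Sdhb, -0.015 for Sdhc and 0.083 for Sdhd, and the adjusted p ran from 0.860 to 0.981. Without WT replicate 3 the median of the complex went from 0.040 to -0.013.

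Complex III passes electrons from ubiquinol to cytochrome c. Its 9 members had a median log2 fold change of 0.049, with 7 positive and 2 negative. Uqcrh, the hinge protein, had 219, 208 and 179 CPM in WT and 218, 233 and 221 CPM in the libraries labelled Lpar3-/-, and WT replicate 1 lay just inside the range of the other group (log2 fold change 0.15, SE 0.083, adjusted p = 0.655). Uqcrfs1, the Rieske iron-sulfur protein, had 471, 496 and 410.1 CPM against 444, 487 and 460.4 CPM, a log2 fold change of 0.015. Cyc1, the cytochrome c1 subunit, had 411, 412 and 369.9 CPM against 422, 415 and 397 CPM, a log2 fold change of 0.049. In these 3 genes WT replicate 3 was again the lowest library. Uqcr10 (log2 fold change 0.044), Uqcrb (0.094) and Uqcrc2 (0.063) did not pass the test either, and without WT replicate 3 the median of the complex was -0.0086.

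Cytochrome c, encoded by Cycs, carries electrons to complex IV and also takes part in programmed cell death. Cycs had 234, 239 and 266 CPM in WT and 268, 244 and 232 CPM in the libraries labelled Lpar3-/-. WT replicate 3 was the highest of the WT libraries here, unlike for most members, and the groups overlapped (log2 fold change 0.0098, 95% interval -0.17 to 0.19, adjusted p = 0.989).

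Complex IV reduces oxygen to water. Its 15 tested members had a median log2 fold change of 0.10, and 14 were positive. All 11 widely expressed nuclear subunits were positive, from 0.025 for Cox6a1 to 0.20 for Cox7b. Cox7b, a small structural subunit encoded on the X chromosome (X:106015700-106022450, plus strand), had 208, 179 and 173 CPM in WT and 219, 210.3 and 216 CPM in the libraries labelled Lpar3-/-. The highest WT library was below the lowest of the others, and the log2 fold change was 0.20 (SE 0.080, unadjusted p = 0.026, adjusted p = 0.441). Cox5a had 152, 163 and 136 CPM against 166, 162 and 165 CPM, with WT replicate 2 inside the range of the other group (log2 fold change 0.13, adjusted p = 0.659).

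Among the most abundant subunits of complex IV, Cox8a had 532, 431 and 483 CPM in WT and 544, 476 and 514 CPM in the libraries labelled Lpar3-/-, a log2 fold change of 0.085. Cox6a1 had 670.4, 610.2 and 614 CPM against 703, 599 and 626 CPM, a log2 fold change of 0.025. Replicate 1 was the highest in both groups for both genes. The tissue isoforms were measured less precisely. Cox6b2 had 11.2, 7.04 and 8.59 CPM against 16.9, 11.3 and 9.94 CPM, a log2 fold change of 0.51 with a 95% interval of 0.039 to 0.98 (unadjusted p = 0.036, adjusted p = 0.503). Replicate 1 of the libraries labelled Lpar3-/- stood alone at the top, and without it the log2 fold change was 0.25. With no filter on low counts its adjusted p in edgeR was 0.042, and under the other alternatives it ran from 0.208 to 0.827. Cox8b had 3.73, 2.13 and 3.02 CPM against 2.73, 2.46 and 1.33 CPM (-0.45), Cox7a1 had 7.90, 4.38 and 7.68 CPM against 7.57, 7.75 and 7.63 CPM (0.20), and the groups overlapped for both.

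Complex V had 17 tested members with a median log2 fold change of 0.076, of which 16 were positive. The 5 genes of the catalytic head, which makes ATP, lay close together, between 0.064 for Atp5a1 and 0.076 for Atp5b. Atp5b, the catalytic beta subunit and the member with the most counts, had 3610.0, 3290.1 and 3311 CPM in WT and 3720.3, 3505 and 3541 CPM in the libraries labelled Lpar3-/-, with WT replicate 1 inside the range of the other group. Atp5a1, the alpha subunit, had 2461, 2279 and 2188 CPM against 2516, 2358 and 2365 CPM. Neither passed the test (adjusted p = 0.837 and 0.872).

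The 4 small membrane subunits of complex V had the highest median of its parts, 0.13, and the 4 tested genes of the peripheral stalk, which holds the head still, had 0.088. Atp5l, a small subunit at the membrane, had 172, 163 and 132 CPM in WT and 162, 185 and 181 CPM in the libraries labelled Lpar3-/- (log2 fold change 0.17, SE 0.097, adjusted p = 0.651). WT replicates 1 and 2 lay within the range of the other group. Atp5mpl had 131, 128 and 109 CPM against 132, 139 and 138 CPM, and the groups did not overlap (log2 fold change 0.16, SE 0.080, adjusted p = 0.606). Atp5h, of the stalk, had 193, 167 and 167 CPM against 187, 191 and 205 CPM, with WT replicate 1 inside the other group (0.14, adjusted p = 0.636). Of the c-subunit genes, Atp5g1 had a log2 fold change of -0.042, Atp5g2 of 0.11 and Atp5g3 of 0.059.

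The medians by complex, 0.021 to 0.10, compare with a median of -0.0036 over all genes tested, and the share of positive values was 81.7% in members and 48.9% in all genes. Among the 4031 genes with a mean of at least 50 CPM, where 76 members lie, 55.1% were positive, with a median of 0.011 on the log2 scale. The mean log2 deviation of the members from their 6-library mean was 0.075 in WT replicate 1, -0.061 in WT replicate 2 and -0.11 in WT replicate 3, and 0.081, 0.023 and -0.0059 in replicates 1 to 3 labelled Lpar3-/-. WT replicate 3 was the lowest of the 6 libraries for 52 of the 82 members (63.4%), and for 20.2% of all genes tested. Leaving out 1 library at a time changed the median of the members as follows. Without WT replicate 3 it was 0.020, with 51 of 82 positive, and without replicate 1 labelled Lpar3-/- it was 0.039, with 53 of 83 positive. Without WT replicate 2 it was 0.059, with 62 of 82 positive. Without replicates 2 and 3 labelled Lpar3-/-, left out one at a time, it was 0.070 and 0.073, with 69 and 74 of 83 positive. Without WT replicate 1 it was 0.11, with 76 of 83 positive and 0 called, and 13 members (15.7%) had an unadjusted p under 0.05, where 11.6% of all genes in that fit did.

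**Figure D3:**
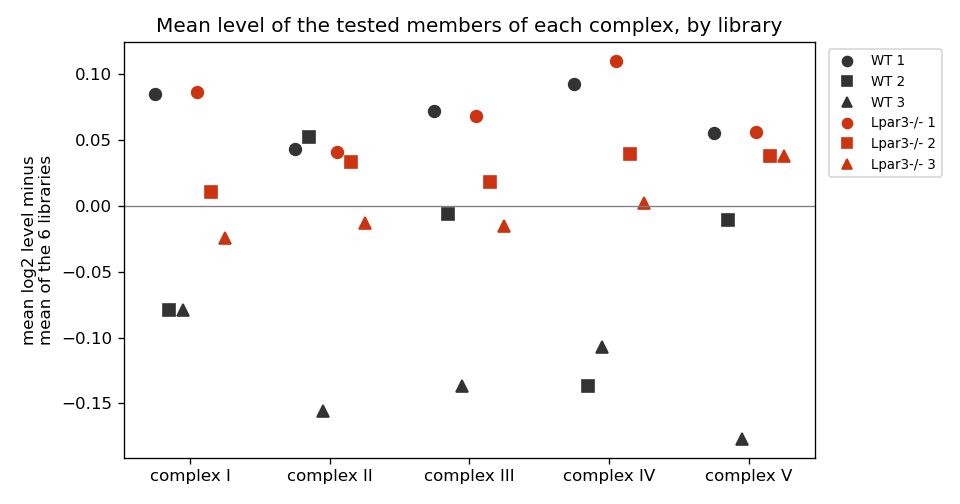
Mean log2 level of the tested members of each complex in each library, as the difference from the mean of the 6 libraries (black, WT; red, labelled Lpar3-/-). WT replicate 3 is low in all 5 complexes (-0.079 to -0.18), WT replicate 2 is low in complexes I and IV, and WT replicate 1 lies with the libraries labelled Lpar3-/-.

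These are levels in whole tissue, where fewer cells of a type and less RNA per cell cannot be told apart, and markers of cell types were summed beside them. The 10 proximal tubule markers summed to 8257 to 8879 CPM in the WT libraries and 8531 to 9164 CPM in those labelled Lpar3-/-, with 6 positive. The 10 markers of the thick ascending limb and distal convoluted tubule summed to 5286 to 6146 against 6510 to 6811 CPM, without overlap, with 9 positive and a median log2 fold change of 0.18. Umod, Egf and Slc12a1 weigh most in this sum (2342, 1376 and 1087 CPM on average in WT). Slc12a3, of the distal convoluted tubule, overlapped, with 363, 269 and 309 against 303, 317 and 334 CPM (log2 fold change 0.018). The 8 tested adipose markers of 9 were all negative, with a median of -1.50 and summed levels of 188 to 354 against 127 to 202 CPM. The 7 tested macrophage and leukocyte markers of 9 were all negative (111 to 161 against 91.9 to 113 CPM). The 6 fibroblast and pericyte markers had 5 negative and a median of -0.38 (150.3 to 274 against 161 to 180 CPM), and the 6 endothelial markers had 5 negative and a median of -0.059 (314 to 333 against 289 to 338 CPM). The 9 tested collecting duct markers of 10 had 4 positive and a median of -0.047, and the summed levels did not overlap here either (860 to 886 against 889 to 987 CPM). Aqp2, the most abundant of these markers, weighs most in the sum. It had 425, 478 and 454 CPM against 463, 502 and 570 CPM, with overlap. The 5 podocyte markers had 3 positive (355 to 422 against 386 to 409 CPM). None of the genes in these 8 lists was called, and all had counts. Their part in the levels of the members was not tested.

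Members also shared a pattern that ran across both groups. Replicate 1 was the highest library of its group in both groups for 39 of the 82 members (47.6%), and for 12.3% of all genes tested. Ndufs6, an accessory subunit of the NADH-binding module, had 91.7, 59.9 and 82.4 CPM in WT and 95.4, 65.4 and 74.3 CPM in the libraries labelled Lpar3-/-, so that the highest library was 1.59 times the lowest while the log2 fold change was 0.0071. Uqcr11, a small subunit of complex III, had 172, 111 and 142 CPM against 165, 123 and 132 CPM. Cox5b, which binds zinc, had 219, 153 and 189 CPM against 228, 187 and 203 CPM. In these 3 genes replicate 1 of both groups was high and replicate 2 low. Ndufa5 ran the same way, with 131, 91.8 and 108 CPM against 132, 106 and 108 CPM. Other members hardly varied, such as Ndufb10, whose highest library was 1.08 times the lowest, and Ndufs1, at 1.11 times. The members named in this paragraph were chosen after their values were seen, as was Ndufs7 above. The shared replicate numbers come from titles that do not state a shared day or litter.

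**Figure D4:**
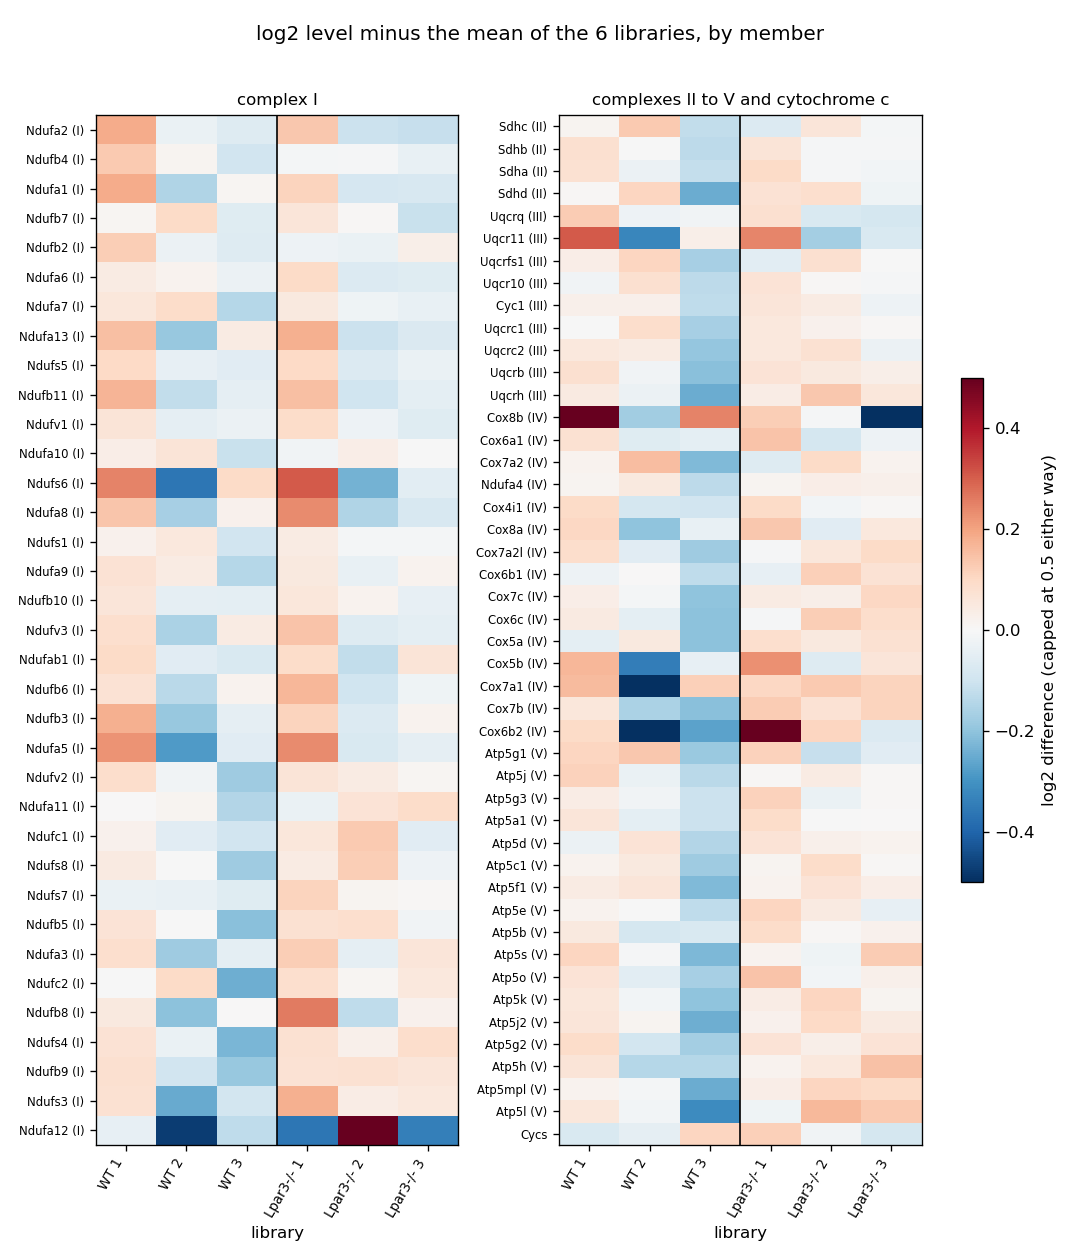
Log2 level of 81 tested members in each library minus its mean over the 6 libraries, by complex, with the color capped at 0.5 either way and a line between the groups. The columns of WT replicate 3 (blue in most rows) and of both replicates 1 (red in rows such as Ndufs6, Uqcr11 and Ndufa5) stand out, and Ndufa12 stands apart in replicate 2 labelled Lpar3-/-.

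Ndufa12, a subunit of the NADH-binding module (chromosome 10), had the largest log2 fold change of all members, 0.66 with an SE of 0.37. It rested on 1 library: the counts were 496, 349 and 436 in WT and 392, 1179 and 392 in the libraries labelled Lpar3-/-, and without replicate 2 of the latter the value was -0.15. With no filter on low counts its adjusted p in edgeR was 2.0e-08, and under the other alternatives it ran from 0.529 to 1.00. A processed copy of the gene, Gm15920 (GRCm38 5:130188395-130188796), is 99.5% identical to 402 bases of the Ndufa12 transcript. It had 1288, 980 and 1136 counts in WT and 1378, 595 and 1189 in the libraries labelled Lpar3-/-, low where Ndufa12 was high. Scaled for library size, the sums of both genes were 101, 78.6 and 95.1 CPM against 101, 112 and 91.4 CPM, highest in replicate 2 labelled Lpar3-/- and lowest in WT replicate 2. Ndufa12 held 66.5% of the sum in replicate 2 labelled Lpar3-/- and 22.1% to 27.8% in the other 5 libraries. With the copy added, the log2 fold change was 0.15 (SE 0.10, adjusted p = 0.734).

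The copy aligned to bases 127 to 528 of the 1110 bases of the Ndufa12 transcript, and within that stretch it differs at 2 bases, A99G and T378C, written with the Ndufa12 base first and counted from the first base of the copy, both within the coding sequence. The 30 bases around each are printed because within the shared stretch these letters tell the gene from the copy, with the differing base in capitals.
Ndufa12 around the first: agaagacaaatatggAaataaatactacga
Gm15920 around the first: agaagacaaatatggGaataaatactacga
Ndufa12 around the second: gattcatgaatgggtTccaccttcgacacc
Gm15920 around the second: gattcatgaatgggtCccaccttcgacacc
Reads that lie wholly in the shared stretch and cover neither base fit both genes equally, while reads from the rest of the transcript have no counterpart in the copy. The counts of Ndufa12 and Gm15920 taken one at a time are therefore uncertain.

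**Figure D5:**
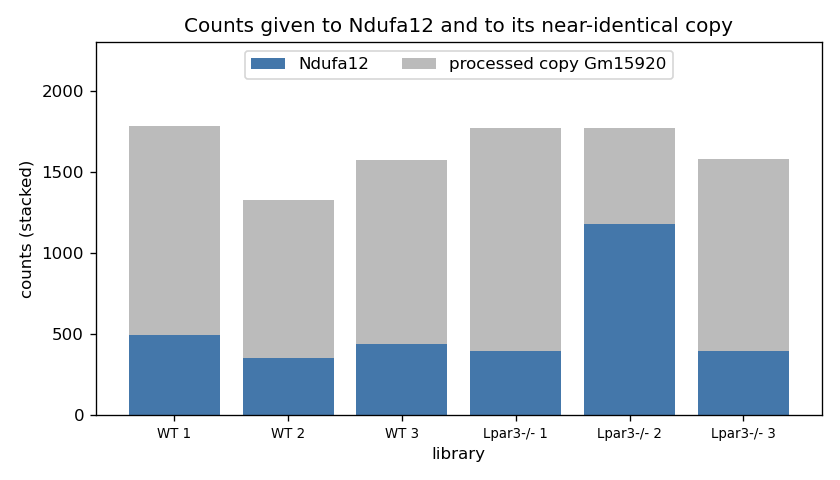
Counts of Ndufa12 (blue) and of its near-identical processed copy Gm15920 (grey), stacked, in each library. The counts are not scaled for library size, and the stacks reach 1329 to 1784 counts, while the Ndufa12 part is 1179 in replicate 2 labelled Lpar3-/- and 349 to 496 in the other libraries.

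Near-identical copies also touch other members. Of the 82 tested, 17 had at least 1 copy elsewhere in the genome with 97% identity over 150 bases or more, 27 copies in all. For 11 of the 17 the copies held under 10% of the counts of the member. They held more for Ndufa12, Atp5g1, Ndufab1, Atp5l, Atp5h and Cycs. The copy of Atp5g1, Gm10039, had 13663 counts over the 6 libraries against 7925 for the gene, and with it added the log2 fold change went from -0.042 to 0.054. For Atp5l it went from 0.17 to 0.14. Of the members tested, 9 share an exon stretch with an overlapping gene, and how reads there were counted is not given in the sources used here.

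Genes around the chain were taken as lists. Of 16 assembly factors of complex I, 0 were called, and the median log2 fold change was 0.0032 with 8 positive. Ndufaf1, which helps to build the membrane arm, had 18.6, 18.7 and 18.4 CPM in WT and 22.9, 24.9 and 20.2 CPM in the libraries labelled Lpar3-/-, without overlap (log2 fold change 0.29, SE 0.10, adjusted p = 0.375). Of 31 tested assembly factors of complexes II to V, 0 were called, 11 were positive and the median was -0.0030. Of 13 genes for coenzyme Q synthesis, 0 were called and 6 were positive. The 13 subunits encoded in mitochondrial DNA had a median of 0.10 with 10 positive and 0 called. Their mean level in WT ran from 2.06 CPM for mt-Atp8 to 25196 CPM for mt-Co1. Some varied widely within a group, such as mt-Atp6 with 392, 85.6 and 295 CPM in WT. The median and the count of signs include such genes. Among the 13, mt-Nd4l had 137, 14.3 and 91.1 CPM in WT and 166, 105 and 438 CPM in the libraries labelled Lpar3-/-. The groups overlapped (log2 fold change 1.54, SE 0.62, adjusted p = 0.454).

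Among 20 regulators of mitochondrial gene expression, 0 were called and 13 were positive, with a median of 0.033. Esrrb, a nuclear receptor that binds the estrogen-related receptor motif, had 66.6, 46.0 and 67.4 CPM in WT and 85.7, 91.8 and 93.3 CPM in the libraries labelled Lpar3-/-, and the groups did not overlap (log2 fold change 0.59, SE 0.12, adjusted p = 0.071). Ppargc1b had 13.5, 13.6 and 15.4 CPM against 18.4, 14.0 and 20.2 CPM, and the groups overlapped (log2 fold change 0.31, SE 0.14, adjusted p = 0.535). Ppargc1a, the coactivator PGC-1alpha, had 98.4, 84.8 and 91.9 CPM against 98.3, 107 and 101 CPM (log2 fold change 0.16, adjusted p = 0.566). Among 17 citric acid cycle enzymes, 0 were called and 11 were positive. Ogdh, a subunit of the oxoglutarate dehydrogenase that makes NADH for complex I, had 578, 589.6 and 575 CPM in WT and 488, 476 and 462 CPM in the libraries labelled Lpar3-/-, without overlap (log2 fold change -0.29, SE 0.067, adjusted p = 0.105). The isoforms known to be induced by hypoxia and left out of the members were low in both groups. Ndufa4l2 had 4.79 ± 0.21 CPM in WT against 4.25 ± 0.26 CPM (SD, n = 3 each), and Cox4i2 had 1.17 ± 0.10 against 1.14 ± 0.16 CPM (SD, n = 3 each).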

How the data were processed

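Kidney RNA of 6 libraries, 3 labelled WT and 3 labelled Lpar3-/-, was analysed. Groups and replicate numbers come from the sample titles. The deposited count table holds reads per gene as whole numbers, not normalized; the submitters' processing notes name build GRCm38 and the tools featureCounts 1.5.0-p3, HISAT2 2.0.5 and DESeq2 1.20.0. The sources used here do not give the strand setting or how multi-mapping reads were counted. The authors also deposited FPKM values, which served for levels per length and for an alternative test.

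Rows without a gene name (377, 0.259% to 0.362% of counts) were left out. Counts were tested with edgeR 4.0.16 (R 4.3.3), quasi-likelihood, TMM normalization and the default filter by group, with Benjamini-Hochberg adjustment over the 15225 genes that passed and a threshold of 0.05. SE values and 95% intervals follow from each gene's fold change and F statistic. CPM use TMM-scaled library sizes, and deviations by library use log2(CPM + 0.5). The coefficient of variation between replicates was 10.5% by the common dispersion. DESeq2 1.42.0, limma 3.58.1 (voom, and log2 of FPKM for genes with a mean of at least 0.1), other normalizations and filters, a replicate block and fits without 1 library were alternatives. The no-filter fit kept every gene with a count, and the stricter filter asked for 10 counts in 3 libraries and a mean of 1 CPM. After the data were seen, counts of near-identical copies, found with blastn 2.17.0 against GENCODE transcripts, were added to members as another alternative. The tests were tried on simulated counts.

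Members were assigned to complexes by hand from the known place of each protein, Ndufa4 to complex IV. The members and the gene lists were chosen with earlier results of these data known. By rule, the text names the 3 members of each complex with the lowest p, the 2 with the highest FPKM, tissue isoforms, complex II and members below the filter, and up to 3 genes of each other list with the lowest p. Others are named where singled out after their values were seen. The values of 1 member are not reported here one at a time; it is in all counts and medians and is not drawn where members are labelled.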

Additional observations from a re-analysis of the deposited data

How the results depend on the processing

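No member was called under DESeq2, limma-voom, RLE or upper-quartile normalization, the fit without mitochondrially encoded genes, the stricter filter, limma on log2(FPKM + 1) or log2(FPKM + 0.1), the fit with copies added, or any fit without 1 library. With no filter 2 members were called higher, Ndufa12 (adjusted p = 2.0e-08) and Cox6b2 (0.042), in a fit that called 520 genes. Elsewhere their adjusted p ran from 0.529 to 1.00 and from 0.208 to 0.827. The cause was not tested. Over all genes DESeq2 called 173 and the main test 57. Leaving out 1 library left 12 to 149, and limma on FPKM called 9 or 13.

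Leaving out each library in turn gave medians of 0.020 to 0.11 for all members, -0.014 to 0.082 for complex I, -0.013 to 0.092 for complex II, -0.0086 to 0.098 for complex III, 0.069 to 0.15 for complex IV and 0.030 to 0.12 for complex V. Complexes II and III changed sign without WT replicate 3 and complex I without replicate 1 labelled Lpar3-/-. Under the other alternatives no median changed sign. Among the 32 members named by rule, 21 of 192 values with a library left out changed sign, with ranges of -0.11 to 0.055 for Ndufa1, -0.15 to 0.026 for Ndufa2, -0.050 to 0.072 for Cycs, -0.13 to 0.016 for Atp5g1, -0.026 to 0.35 for Cox7a1, -0.074 to 0.049 for Sdhc, -0.0082 to 0.16 for Sdhd, -0.018 to 0.084 for Sdhb, -0.0086 to 0.11 for Uqcrc2, -0.0051 to 0.098 for Uqcr10, -0.056 to 0.074 for Uqcrfs1, -0.066 to 0.11 for Cox7a2, -0.044 to 0.073 for Cox6a1 and -0.15 to 0.95 for Ndufa12. Of 352 values under other alternatives 1 changed sign, Atp5g1 with its copy added (0.054). The causes were not tested.

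Same-numbered libraries of the groups deviated together only weakly (correlations of 0.011, 0.020 and 0.062 across all genes tested), so the numbers were not taken to pair libraries. These correlations do not speak for the members alone, of which 39 of 82 had replicate 1 highest in both groups. With the replicate number as a block, 0 members and 80 genes in all were called, and the median of the members was 0.066. In that fit 3 members (3.66%) had an unadjusted p under 0.05, where 9.47% of all genes did. The interval of a low member such as Cox8b, -1.15 to 0.25 on the log2 scale, is wide at this depth.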

Other observations

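Ndufb1-ps, annotated as a non-coding gene and so outside the members, was given 877, 760 and 690 counts in WT and 805, 819 and 864 in the libraries labelled Lpar3-/- (log2 fold change 0.11, SE 0.08, adjusted p = 0.770). Its level, 45.4 ± 3.90 against 49.1 ± 2.95 CPM (SD, n = 3 each), lay within the range of the complex I subunits.

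Nnt, the transhydrogenase of the inner mitochondrial membrane that uses the proton gradient to make NADPH, was nearly without counts. Its counts were 14, 22 and 36 in WT and 26, 15 and 35 in the libraries labelled Lpar3-/-, or 0.790 to 2.18 CPM, in both groups alike.

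In replicate 2 labelled Lpar3-/-, counts of another gene and its processed copy also stood apart, in the opposite direction to Ndufa12: the copy was high and the gene low. Gm9824, a processed pseudogene 98.9% identical to the Pebp1 transcript over 561 bases, had 1938 counts in replicate 2 labelled Lpar3-/- and 505 to 713 in the other libraries, and Pebp1 had 5353 counts there and 6530 to 8526 elsewhere. Scaled for library size, Gm9824 had 122 CPM there and 28.5 to 42.2 CPM elsewhere. The gap was smaller for Pebp1, with 337 CPM there and 395 to 486 CPM elsewhere.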
